A study of Mus musculus with 4 samples.

Results

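The cytosolic ribosome of the mouse joins a large and a small subunit, each built from ribosomal RNA and ribosomal proteins whose messenger RNAs are among the most abundant in a growing cell. Most of these messages begin with a short pyrimidine run, the 5' terminal oligopyrimidine (TOP) tract, through which mTOR signalling controls their translation. Beside the standard set, several ribosomal protein genes have paralogs that are used mainly in one tissue, such as testis or muscle. The members described here were found by name: gene symbols of the Rpl and Rps type with a number and at most 1 suffix letter, the stalk genes Rplp0, Rplp1 and Rplp2, and Rpsa, without the S6 kinase genes. This gave 59 of the 19938 genes measured, 37 of the large and 22 of the small subunit. Of them, 53 belong to the standard set and 6 are paralogs. The standard set has 80 proteins, and 25 of these genes had no probe set that names them alone, so they are not analysed here; 2 more, Fau and Rps3a1, were measured but lie outside the name pattern.

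The cells were mouse fibroblasts of the established line NIH3T3, in a single stable clone, p19, with integrated pBI-EGFP-FLAG-mCtcfl and pTA-N vectors. Ctcfl encodes CTCFL, or BORIS, the testis paralog of the insulator protein CTCF, and in this Tet-Off arrangement doxycycline represses the transgene. The 2 Ctcfl samples had grown for 48 h in medium lacking doxycycline, and the 2 control samples had 2 µg/ml doxycycline. Removal of the drug, induction of Ctcfl and any change of EGFP from the same vector therefore cannot be told apart. Each sample went on 1 Affymetrix array, and all 4 carried the same vectors. Whether the replicates grew as separate cultures is not given in the labels. The p-values therefore reflect the spread of 2 arrays a group, technical or biological, drawn by limma toward a spread shared by all genes. That prior carried 4.21 degrees of freedom, so a gene's SE and p are not its own array spread alone. With so few arrays the precision is low.

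Values are RMA expression values on the log2 scale, normalised between arrays, so a level is relative to the other genes of the array and a shift shared by every transcript would not be seen. In bulk RNA, fewer cells of a type and less RNA per cell cannot be told apart. Ctcfl itself had 10.37 and 10.35 in the Ctcfl arrays, against 7.77 and 7.71 in the control arrays (log2 change 2.62, SE 0.08, adjusted p = 5.38e-04 by limma). The control values lay above the upper quartile of the arrays, 7.40 to 7.43, so Ctcfl was not shown to be absent there. The source of that signal was not tested. Every Ctcfl array was far above both controls, as labelled, though with any array left out the adjusted p was 0.539 to 0.649. The 10 fibroblast markers had mean levels from 2.90 to 12.12, with Vim, Col1a2 and Fn1 high and Lum and Postn below the lower quartile of the arrays, which was 4.09 to 4.12. Markers of macrophages, epithelium, endothelium, muscle and fat had means of at most 6.32, below the upper quartile of 7.40 to 7.43. Across genes the arrays correlated at 0.996 within the Ctcfl group, 0.997 within the control group and 0.995 to 0.996 between groups (Pearson).

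The promoters of 5 members are shown as examples, chosen by expression values or by role, and none of the 5 passed the threshold. Rpl26 and Rpl14 had the smallest p-values, Rps15 is the small subunit head gene with the smallest p-value, Rpl39l is a testis paralog, and Rpl9 is a gene whose Ctcfl arrays lay above the controls. Each line gives 80 bases before the start of the RefSeq promoter entry and 20 from it, 5' to 3' in the gene's direction, from GRCm38.p6. For Rpl39l that start lies downstream of the RefSeq gene start, 10170197. Capitals mark letters of the motifs listed after them, and in Rpl14 also the C at the start with the C or T letters that follow.
Rpl26, chr11:68901486-68901585, + strand: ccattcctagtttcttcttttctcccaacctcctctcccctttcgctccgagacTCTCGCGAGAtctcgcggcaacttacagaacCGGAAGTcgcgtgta
Rpl14, chr9:120571437-120571536, + strand: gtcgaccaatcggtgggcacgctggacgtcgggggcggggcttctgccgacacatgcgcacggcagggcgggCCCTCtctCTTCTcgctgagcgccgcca
Rps15, chr10:80292351-80292450, + strand: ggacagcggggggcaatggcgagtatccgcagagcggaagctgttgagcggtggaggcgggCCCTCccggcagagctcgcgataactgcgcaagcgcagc
Rpl39l, chr16:10170148-10170247, + strand: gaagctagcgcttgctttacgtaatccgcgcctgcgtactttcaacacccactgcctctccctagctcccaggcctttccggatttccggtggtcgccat
Rpl9, chr5:65391412-65391511, - strand: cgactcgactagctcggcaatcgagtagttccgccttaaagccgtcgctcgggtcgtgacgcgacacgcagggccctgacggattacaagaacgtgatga

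A promoter of 300 bases, 250 before and 50 from the start, was in the RefSeq table for 47 of the 59 members. Motifs were searched on both strands, and a gene counted if any of its listed promoters held one. A C at the start followed by 4 letters that were each C or T, the form of a TOP start, was found for 10 of the 47 members (21.3%), against 3.01% of 27025 genes with a promoter. Only the letters at the annotated start were read, so a start annotated some bases away would be missed. The share is therefore not a count of TOP messages. CGGAAGT, the type of site that ETS factors bind, was in 17 (36.2%, against 7.20% of all genes), and TCTCGCGA, 8 letters of a palindrome known from promoters of housekeeping genes, was in 9 (19.1%, against 1.13%). CCCTC, the letters after which CTCF is named, was in 27 members (57.4%), against 67.7% of all genes, and GGNGGCAG, a stretch of the longer CTCF motif, was in 3 (6.38%), against 14.1% of all genes. The YY1 type AAGATGGC was in 2 members (4.26%, against 3.19%) and TATAAA in 6 (12.8%, against 15.7%). None of these motifs contains another. Among the 19 members with a promoter whose Ctcfl arrays both lay below both controls, 11 held CCCTC, 0 held GGNGGCAG, 6 held CGGAAGT, 1 held TCTCGCGA, 0 held AAGATGGC, 1 held TATAAA and 4 had the pyrimidine start. Among the other 28 members with a promoter, 16 held CCCTC, 3 held GGNGGCAG, 11 held CGGAAGT, 8 held TCTCGCGA, 2 held AAGATGGC, 5 held TATAAA and 6 had the pyrimidine start. A match is a string of letters and was not tested as a binding site.

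Ctcfl and control arrays were compared to see how ribosomal protein messages differed where the testis factor was raised in fibroblasts. None of the 59 genes passed at an adjusted p of 0.05 by limma, where 0.0451% of all genes did (0.0301% higher and 0.015% lower). Without adjustment, 2 had a p under 0.05, both lower, and 0 higher, against 5.32% of all genes lower and 5.36% higher. The measured differences were small. The log2 change lay between -0.28 (Rps27l) and 0.075 (Rpl8), with a median of -0.045, where the median of all genes was 0. It was within 1.2-fold for 57 of 59 members (96.6%, against 91.2% of all genes). The 95% interval, not adjusted for the number of genes, stayed within 1.5-fold for 56 members and within 2-fold for all 59. Its lowest bound was -0.62, or 1.54-fold lower, for Rpl34, and its highest was 0.31, or 1.24-fold higher, for Rps15a. When genes were given a log2 change of 0.5 in simulated data, 6.13% of them were called, so this test had little power for changes of the size measured here.

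The small differences leaned one way. A lower mean in the Ctcfl arrays was found for 49 members, a higher one for 8 and an equal one for 2 (Rpsa and Rps21), where 48.6% of all genes had a lower and 49.9% a higher mean. Both Ctcfl arrays lay below both controls for 23 members (39.0%, where 20.6% of all genes did so). Both lay above for 2 members (3.39%, where 20.6% of all genes did so), and 34 overlapped. Most of the members were bright: 47 were among the 1991 brightest genes, of which 27.6% had Ctcfl below and 24.2% above. Of those 47, 16 were below and 2 above, with a median change of -0.035, against -0.005 for all 1991. The 10 fibroblast markers leaned the same way, with 6 below (60.0%), 1 above and a median change of -0.075, and their part in the result was not tested. Members were chosen with earlier results known, and no test was made of the list as a whole.

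**Figure D1:**
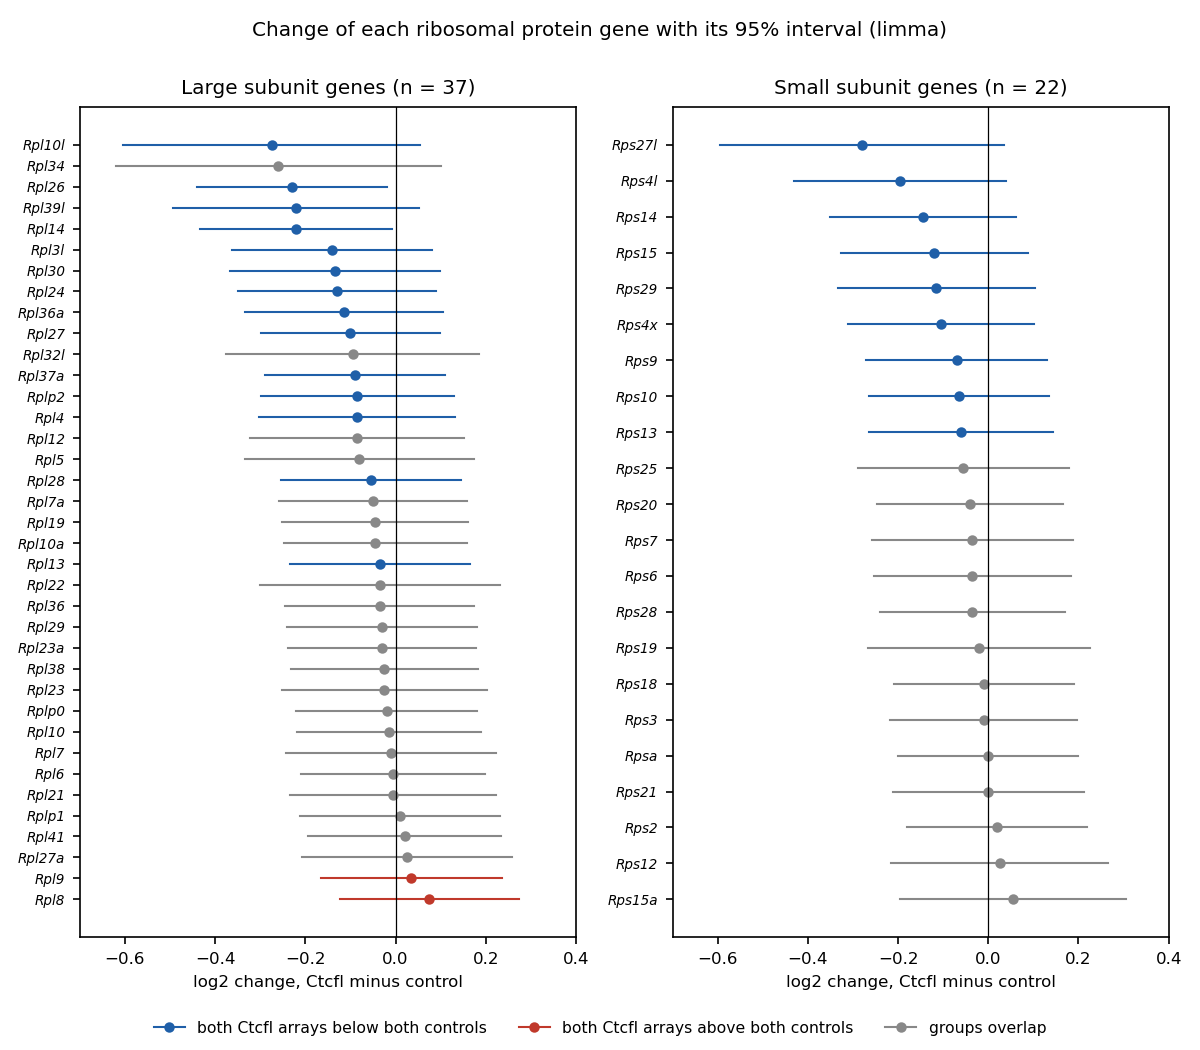
Log2 change (Ctcfl minus control, 2 arrays each) of each ribosomal protein gene, with its 95% interval from limma, for 37 large subunit genes on the left and 22 small subunit genes on the right. Blue genes had both Ctcfl arrays below both controls (23 genes), red genes above (2 genes), and grey genes overlapped (34 genes). The points lean to the left of 0, and 57 of the 59 intervals cross 0.

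Single arrays carried much of the lean. Taking each member's value minus its mean over the arrays, the median was -0.0475 in Ctcfl replicate 1 and -0.0025 in Ctcfl replicate 2, against 0.0525 in control replicate 1 and 0 in control replicate 2. The second replicates of the groups were thus nearly level, and the first replicates lay apart. Ctcfl replicate 1 held the lowest value of 31 of the 59 members (52.5%, against 21.5% of all genes), and control replicate 1 held the highest value of 35 members (59.3%, against 21.7%). Among the brightest 1991 genes, control replicate 1 held the highest value for 32.6% and Ctcfl replicate 1 the lowest for 27.9%. Without control replicate 1, the members' median change was -0.02 and 38 members had a lower mean. Without Ctcfl replicate 1 the median was -0.045 and 39 had a lower mean. It was -0.07 without Ctcfl replicate 2 and -0.075 without control replicate 2, with 52 and 49 lower. The direction of the median was the same each time, and its size moved by more than 1.5 times except without Ctcfl replicate 1. Non-overlap is easier where 1 array faces 2. The count of members below, 23, was then 27 without Ctcfl replicate 1 (36.0% of all genes below), 41 without Ctcfl replicate 2 (33.5%), 27 without control replicate 1 (36.5%) and 42 without control replicate 2 (32.0%). The part of each array's quality in this lean was not tested.

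**Figure D2:**
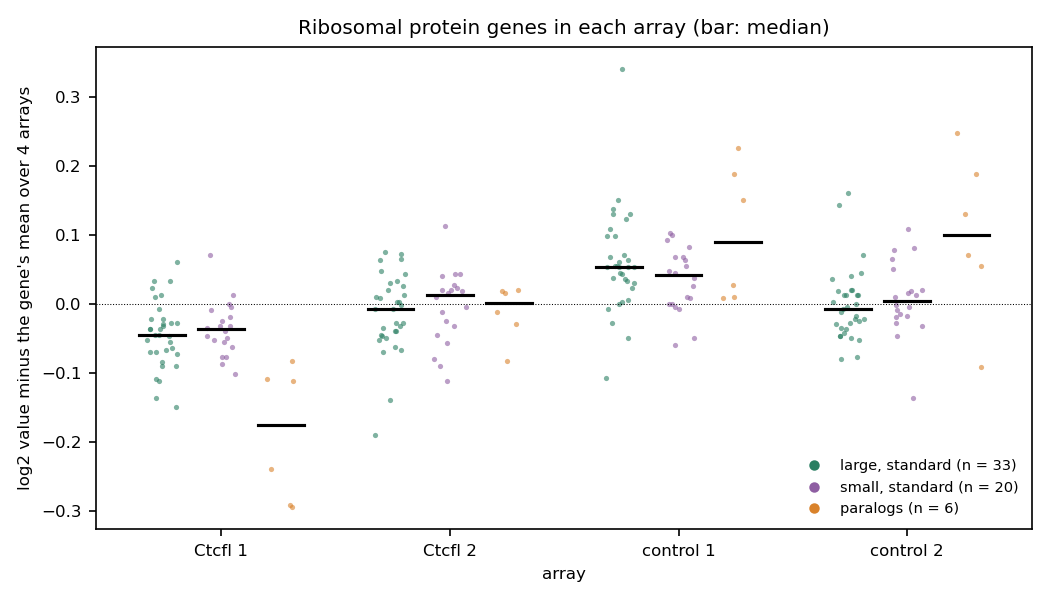
Each point is a ribosomal protein gene's log2 value minus its mean over the 4 arrays, with arrays on the horizontal axis and black bars for medians of the standard large subunit genes (green, 33), standard small subunit genes (purple, 20) and paralogs (orange, 6). The medians of the standard genes are lowest in Ctcfl replicate 1, near 0 in Ctcfl replicate 2 and control replicate 2, and highest in control replicate 1.

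Large and small subunit genes had nearly the same difference. Of the 37 large subunit genes 32 had lower means, with a median of -0.045. Both Ctcfl arrays lay below in 14 (37.8%, against 20.6% of all genes) and above in 2. Of the 22 small subunit genes 17 had lower means, 9 below (40.9%) and 0 above, with a median of -0.0375. The large minus small difference of the medians was -0.0075. Without control replicate 1 it was 0.0125 and without Ctcfl replicate 1 it was -0.0475, so neither its sign nor its size was stable. Among standard genes alone, the median was -0.035 for both the 33 large and the 20 small subunit genes, with 11 and 7 genes below.

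Within the large subunit, Rpl26, a protein at the rim of the exit tunnel through which the new chain leaves, had the smallest p-value. It measured 9.01 and 8.96 in the Ctcfl arrays, against 9.17 and 9.26 in the control arrays (log2 change -0.23, SE 0.09, adjusted p = 0.441 by limma). The groups did not overlap in this probe set, and the difference was 1.17-fold. Probe sets that list Rpl26 together with Gm15772 were brighter, with means from 9.305 to 9.97. Their changes were smaller, from -0.13 to -0.095, and their groups overlapped or shared a value. Rpl14 had 8.64 and 8.72 in the Ctcfl arrays, against 8.94 and 8.86 in the control arrays (log2 change -0.22, SE 0.09, adjusted p = 0.457 by limma). Here too every Ctcfl value was lower than every control value. Over the alternatives tried, the adjusted p ran from 0.0818 to 0.744 for Rpl26 and from 0.119 to 0.665 for Rpl14. Rpl24, a late-joining protein that reaches toward the small subunit, had 10.92 and 10.97 in the Ctcfl arrays, against 11.14 and 11.01 in the control arrays (log2 change -0.13, adjusted p = 0.638 by limma). Rpl30, which takes part in a bridge between the subunits, had 9.70 and 9.84 in the Ctcfl arrays, against 9.96 and 9.85 in the control arrays. In Rpl24 and Rpl30 control replicate 1 was the high sample and control replicate 2 lay just above a Ctcfl array. The X-linked Rpl36a had 11.10 and 11.21 in the Ctcfl arrays, against 11.31 and 11.23 in the control arrays, with the same order of samples. Rpl34 had a change of -0.26, but its groups overlapped: 8.16 and 8.04 in the Ctcfl arrays, against 8.57 and 8.15 in the control arrays, so 1 control array made the difference.

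The 2 members with both Ctcfl arrays above the controls belong to the large subunit. Rpl8, which lies near the catalytic centre for peptide bonds, had 11.90 and 11.91 in the Ctcfl arrays, against 11.84 and 11.82 in the control arrays (log2 change 0.075, SE 0.08, adjusted p = 0.778 by limma). Rpl9 had 12.62 and 12.61 in the Ctcfl arrays, against 12.60 and 12.56 in the control arrays (log2 change 0.035, adjusted p = 0.904 by limma). Both changes were smaller than their standard errors, which limma draws toward the spread of all genes. The SD within the Ctcfl and control groups was 0.007 and 0.014 for Rpl8, and 0.007 and 0.028 for Rpl9.

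The P stalk is the arm of the large subunit that recruits elongation factors, with Rplp0 as its scaffold, Rplp1 and Rplp2 as its tips and Rpl12 at its base. Rplp0 had 12.32 and 12.36 in the Ctcfl arrays, against 12.35 and 12.37 in the control arrays. Rplp1 had 12.29 and 12.18 in the Ctcfl arrays, against 12.18 and 12.27 in the control arrays. For both, the groups overlapped and the change, -0.02 and 0.01, was far inside the standard error. Rplp2 had 8.15 and 8.11 in the Ctcfl arrays, against 8.27 and 8.16 in the control arrays, without overlap (log2 change -0.085, adjusted p = 0.764 by limma). Rpl12 had 8.29 and 8.27 in the Ctcfl arrays, against 8.46 and 8.27 in the control arrays, with a shared value. None of the 4 passed, and the sign of Rpl12 (0.01) and Rplp1 (-0.035) turned when control replicate 1 was left out, as did that of Rplp1 without Ctcfl replicate 1 (-0.045). Rpl5, which with 5S ribosomal RNA forms the particle that can bind Mdm2, had 11.99 and 12.13 in the Ctcfl arrays, against 12.23 and 12.05 in the control arrays (log2 change -0.08, adjusted p = 0.814 by limma). Its groups overlapped, and its change was 0.01 without control replicate 1. Of the exit tunnel and its rim 5 members were measured, all with lower means. Among them 2 lay below without overlap (40.0%, where 20.6% of all genes lay below). Besides Rpl26, the tunnel protein Rpl4 had 11.71 and 11.73 in the Ctcfl arrays, against 11.87 and 11.74 in the control arrays. For Rpl19 the change was -0.045 with overlap.

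In the small subunit the smallest p-value among standard genes was that of Rps14, a platform protein whose loss of 1 copy is known in human 5q- syndrome. It had 11.75 and 11.67 in the Ctcfl arrays, against 11.85 and 11.86 in the control arrays (log2 change -0.145, SE 0.08, adjusted p = 0.578 by limma). The head of the small subunit, which swivels as the ribosome moves along the message, had 10 measured members, 9 of them with lower means. Both Ctcfl arrays lay below both controls in 3 (30.0%), against 20.6% of all genes and 27.6% of the 1991 brightest. Rps15, a head protein near the decoding site, had 11 and 10.96 in the Ctcfl arrays, against 11.14 and 11.06 in the control arrays (log2 change -0.12, adjusted p = 0.645 by limma). Rps29 had 9.77 and 9.86 in the Ctcfl arrays, against 9.88 and 9.98 in the control arrays. For Rps29 the gap between the groups was smaller than the spread within each. Rps10 had 11.35 in both Ctcfl arrays, against 11.43 and 11.40 in the control arrays (log2 change -0.065). Outside the head, the X-linked Rps4x had 11.03 and 11.02 in the Ctcfl arrays, against 11.17 and 11.09 in the control arrays, and Rps9, which lies near the entry of the message, had a change of -0.07. None of these passed. Of the 20 genes tied to Diamond-Blackfan anaemia in human, an inherited failure of red cell formation, 10 were measured in single-symbol probe sets. They had a median of -0.0525, 9 with lower means and 4 below without overlap (40.0%, where 20.6% of all genes lay below), and 0 passed. Fau, whose product joins a ubiquitin-like domain to a small subunit protein, had 11.61 and 11.53 in the Ctcfl arrays, against 11.66 and 11.60 in the control arrays, with overlap by a narrow margin. Rps3a1 had 9.21 and 9.55 in the Ctcfl arrays, against 9.48 and 9.23 in the control arrays, a wider spread within each group than between them.

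Paralogs had larger differences than the standard genes, though none passed. All 6 had lower means in the Ctcfl arrays, with a median of -0.2075. In 5 of them both Ctcfl arrays lay below both controls (83.3%, where 20.6% of all genes did so). The paralogs were also dimmer, with means from 4.13 to 8.34, against 8.09 to 13.25 for the standard genes, and distance from background was not measured. Rps27l, a paralog of Rps27 that p53 induces, had 7.36 and 7.67 in the Ctcfl arrays, against 7.88 and 7.71 in the control arrays (log2 change -0.28, SE 0.13, adjusted p = 0.504 by limma). Rpl10l, an intronless copy of the X-linked Rpl10 that serves in male meiosis, had 5.64 and 5.95 in the Ctcfl arrays, against 5.96 and 6.18 in the control arrays (log2 change -0.275, SE 0.14, adjusted p = 0.521 by limma). In both genes Ctcfl replicate 2 came close to a control array. Rpl10 itself had a change of -0.015. Rpl39l, the testis paralog of Rpl39, had 7.96 and 8.22 in the Ctcfl arrays, against 8.35 and 8.27 in the control arrays (log2 change -0.22, SE 0.11, adjusted p = 0.532 by limma). For Rps4l the values were 6.40 and 6.43 in the Ctcfl arrays, against 6.52 and 6.70 in the control arrays (log2 change -0.195), while its second, dimmer probe set had 0.065. Rpl3l, the muscle paralog of Rpl3, had 4.02 and 4.10 in the Ctcfl arrays, against 4.14 and 4.26 in the control arrays, near the lower quartile of the arrays. Rpl32l overlapped (log2 change -0.095). Ctcfl replicate 1 held the lowest value of 5 of the 6 paralogs. Across the members, larger differences were found at lower levels: the median size of the change, without sign, was 0.035 for the 47 members among the 1991 brightest genes and 0.095 for the 7 members among the next 1997, against 0.075 and 0.09 for all genes at those levels.

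**Figure D3:**
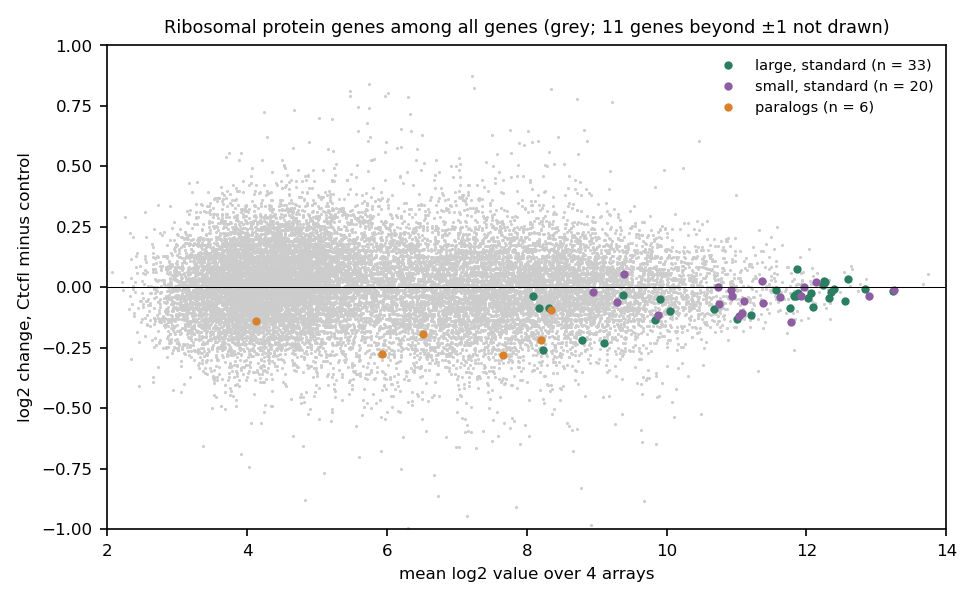
Log2 change (Ctcfl minus control) against the mean log2 value over the 4 arrays for standard large subunit genes (green), standard small subunit genes (purple), paralogs (orange) and other genes (grey; 11 genes beyond 1 in either direction are not drawn). The standard genes above a level of 11 lie close to 0, and the 6 paralogs lie below 0 at lower levels.

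Ribosomal protein genes have many processed pseudogenes of nearly the same sequence, and a probe set can bind transcripts of several copies, so a value here cannot be assigned to 1 copy with certainty. The 59 members had 215 probe sets with their symbol alone, and 146 further probe sets listed a member among several symbols. Of the 215, 157 had lower, 53 higher and 5 equal means in the Ctcfl arrays, with a median change of -0.03. Single-symbol probe sets of the same gene gave nearly the same change, with a median span of 0.04 over 39 genes with more than 1. Brighter probe sets of several symbols could differ from them. Those listing Rpl30 had changes from -0.06 to -0.005, against -0.135 in its single-symbol probe set. For Rpl34 they ran from -0.01 to 0.015, against -0.26, while 1 listing Rpl36a had -0.125, against -0.115. The single-symbol probe sets are not independent measurements throughout, since 5 genes had probe sets with identical values. Among them was Rps12, where 5 of 14 probe sets, the brightest included, held the same values; whether they share probes was not tested. All probe sets of a gene lay on the same side of 0 in 23 of the 39 genes, 19 of them lower and 4 higher. Rpl9 had 8 probe sets, all higher, and Rpl23a had 13, all lower, with changes from -0.07 to -0.03. The 4 probe sets of Rps29 ran from -0.20 to -0.115, so its brightest one had the smallest difference. Rps4l had the widest span, 0.26. In a fit over all probe sets 0 of the 215 passed, with a smallest adjusted p of 0.652 by limma.

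**Figure D4:**
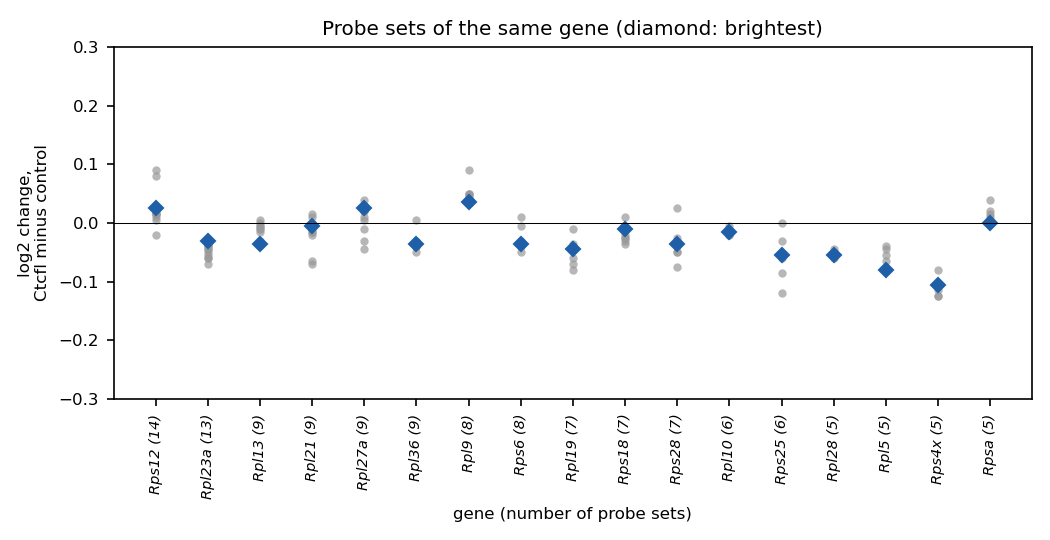
Log2 change (Ctcfl minus control) of every single-symbol probe set for the ribosomal protein genes with 5 or more of them, with the gene and its number of probe sets on the horizontal axis; diamonds mark the brightest probe set, which represents the gene. Probe sets of a gene lie close together, from 0.035 to 0.09 for Rpl9 and from -0.07 to -0.03 for Rpl23a.

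Other genes of translation were described from lists of their known roles, and none of their members passed over all genes. Over all genes, 20.6% had both Ctcfl arrays below both controls and 20.6% had them above. A mixed list held 15 measured genes of elongation factors, TOP messages and other translation factors, and is not one of TOP messages alone. Of these genes 13 had lower means, with 6 below (40.0%) and 0 above. Their median was -0.045, the same as that of the ribosomal protein genes. Nap1l1, a histone chaperone with a TOP message, had 9.01 and 9.15 in the Ctcfl arrays, against 9.26 and 9.16 in the control arrays, and Naca, a subunit of the complex that greets new chains, had a change of -0.125 with overlap. The abundant Eef1a1 (0.015) and Eef2 (-0.02), chosen after their values were seen, lay near 0. Initiation factors had 20 of 32 with lower means, 8 below and 2 above, with a median of -0.0275. There Eif2b4, a subunit of the exchange factor of eIF2, had 7.14 and 7.46 in the Ctcfl arrays, against 6.91 and 6.98 in the control arrays (log2 change 0.355, adjusted p = 0.424 by limma), and Eif3f had -0.15.

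Genes that build ribosomes leaned lower as the ribosomal protein genes did. Of 76 ribosome biogenesis genes 57 had lower means, 29 below (38.2%) and 2 above (2.63%), with a median of -0.065. Over all genes 20.6% lay below and 20.6% above. Among the 1997 genes with mean levels from 8.135 to 9.0525, 28.8% lay below and 25.6% above. Rrp1b, a nucleolar processing protein, had 7.72 and 7.59 in the Ctcfl arrays, against 7.92 and 7.93 in the control arrays (log2 change -0.27, adjusted p = 0.409 by limma). Nob1, the nuclease that trims 18S ribosomal RNA, had 8.58 and 8.48 in the Ctcfl arrays, against 8.79 and 8.72 in the control arrays (log2 change -0.225, adjusted p = 0.453 by limma). In both, the groups were apart by more than the spread within them, and neither passed after adjustment over all genes. Of 16 RNA polymerase I genes 7 were below (43.8%) and 2 above (12.5%), with a median of -0.0875. The 2 above were Baz2a, a subunit of a complex that silences ribosomal DNA, with 7.39 in both Ctcfl arrays against 7.0 and 6.93 in the control arrays (log2 change 0.425, adjusted p = 0.248 by limma), and Taf1d, with 0.17 from its brightest probe set and -0.0389 from the mean of its probe sets. Chaperones and importins of ribosomal proteins had 6 of 14 below (42.9%) and 1 above (7.14%), with Ipo5 at -0.16 and Ipo7 at -0.14. Of 6 genes that host small nucleolar RNAs 3 were below, among them Rcc1 (log2 change -0.295, adjusted p = 0.352 by limma) and Snhg15 (-0.275). The 77 mitochondrial ribosomal protein genes had 26 below (33.8%) and 5 above, with a median of -0.055.

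Regulators of translation had differences in both directions. Of 16 genes of mTOR signalling and translation control, 6 were below (37.5%) and 5 above (31.2%), against 20.6% of all genes in each direction. Their median change was -0.0725 and their mean change 0.01. Larp1b, a relative of the TOP-binding protein Larp1, had 6.15 and 6.02 in the Ctcfl arrays, against 5.60 and 5.51 in the control arrays (log2 change 0.53, SE 0.09, adjusted p = 0.196 by limma). Its groups lay well apart, while Larp1 had -0.105. Tsc2, which restrains mTOR, had 8.46 and 8.62 in the Ctcfl arrays, against 8.25 and 8.34 in the control arrays (log2 change 0.245, adjusted p = 0.454 by limma). The S6 kinase genes include some whose products phosphorylate the ribosomal protein encoded by Rps6. All 6 measured had higher means, with a median of 0.18. Both Ctcfl arrays lay above both controls in 4 of them (66.7%, where 20.6% of all genes did so). Another 4 listed genes were not measured. Rps6ka5 had 6.5 and 6.58 in the Ctcfl arrays, against 6.35 and 6.23 in the control arrays (log2 change 0.25, adjusted p = 0.437 by limma), and Rps6kl1 had 0.255 (adjusted p = 0.504 by limma). Rps6 itself had 12.83 and 12.92 in the Ctcfl arrays, against 12.96 and 12.86 in the control arrays, with overlapping groups.

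**Figure D5:**
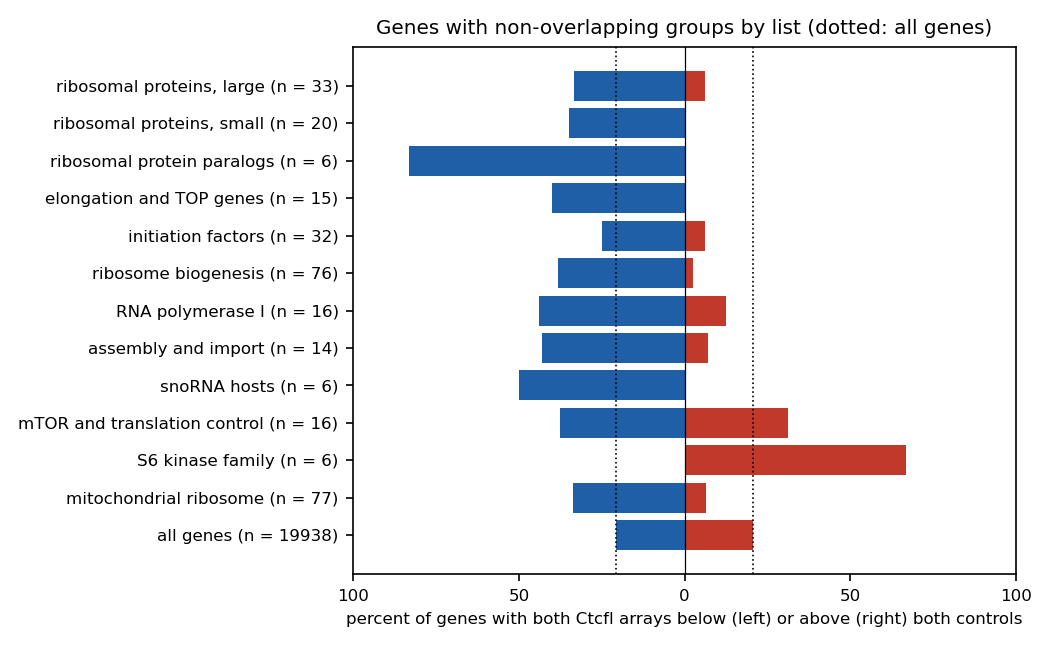
Percent of genes in each list whose 2 Ctcfl arrays both lay below (blue, to the left) or above (red, to the right) both control arrays; dotted lines mark the 20.6% found in each direction over all 19938 genes. Ribosomal proteins, biogenesis and RNA polymerase I genes reach further to the left than to the right, and the 6 S6 kinase genes lie to the right only.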

How the data were processed

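RNA of 4 samples, 2 Ctcfl and 2 control, was measured on Affymetrix arrays. The deposited log2 values are RMA values from Expression Console, per the labels; its version and settings are not given in the sources used here. Of 35512 probe sets 1 had no value. By the platform annotation of 2016, 21789 had 1 symbol, 1621 had several, from which no gene was named, and 12101 are not listed there; checking by gene identifier against RefSeq (GRCm38.p6) changed 0 symbols. The brightest probe set represented each gene, which left 19938 genes with no filter on dim ones. The test was limma's moderated one (version 3.58.1, R 4.3.3; lmFit and eBayes, two-sided, Benjamini-Hochberg over all genes, threshold 0.05; prior of 4.21 degrees of freedom). Figures used matplotlib 3.10.9 in Python 3.11.15. Promoter motifs of 8 letters were shortened from longer forms whose counts had been seen. The members and lists were chosen with earlier results of these data known. Genes were named by smallest unadjusted p among members with non-overlapping groups (up to 8 lower and 4 higher per subunit), by role, and as the 2 smallest p of each related list; Rpl34, Rpl10, Rpl32l, Rps6, Larp1, Rpsa, Rps21, Rps12, Rpl23a, Rps15a and Rps3a1 were named after their values were seen. Alternatives covered scaling, dim genes, probe set choice, variances, pairing and each array left out. In 10 simulations with 200 changed genes among 19938, limma recovered 100.0%, 87.9% and 6.13% of changes of 2, 1 and 0.5 (log2), and 4.99% of calls were false. Simulated variances followed the model that the test assumes, so the rates can be too high.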

Additional observations from a re-analysis of the deposited data

How the results depend on the processing

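No member was called under any alternative (limma; 59 members, but 58 without the dimmest genes and 75 with probe sets of several symbols), and 0 to 8 were lower at an unadjusted p under 0.05. An intensity trend with robust variances gave those 8, where 1406 of all 19938 genes were lower at that p, and the smallest adjusted p of a member, 0.0818. That setting called 479 of all genes (220 higher and 259 lower), against 9 in the report, and 1 gene each among RNA polymerase I (Baz2a), mTOR control (Larp1b) and snoRNA host genes (Rcc1). Ordinary t statistics gave 0 calls and 4 lower and 1 higher at an unadjusted p under 0.05, where 955 of all 19938 genes were lower and 985 higher. The count with both Ctcfl arrays above the controls, 2, was 1 after renewed quantile normalisation (21% of all genes above), median centring (15.7%) and averaging over probe sets (20.5%). With probe sets of several symbols it was 4 of 75 genes, where 20.5% of all genes lay above. In that setting 24 of the 75 lay below, where 20.6% of all genes did so. Lower means were found for 57 of the 75, with a median change of -0.035. With each array left out, 1 array faces 2 and non-overlap is easier (32.0% to 36.5% of all genes below and 32.6% to 36.6% above). The count above then ran from 4 to 10, and the count below from 27 to 42. The median change then ran from -0.075 to -0.02 over all members, from -0.075 to -0.02 in the large and from -0.0725 to -0.0075 in the small subunit, and the large minus small difference from -0.0475 to 0.0125. Median centring moved all genes by -0.03 and gave the members a median of -0.075 with 56 lower, where 11392 of all 19938 genes were lower. With the replicate block 0 members and 0 of all genes were called, against 9 without it. Deviations of same-numbered arrays from their group means had a weak negative correlation across genes (Pearson r = -0.102). The block with crossed numbers, added after seeing the data, also called 0 members. Signs turned for Rpl12 (0.03) and Rplp0 (0.03) with probe sets of several symbols, for Rplp0 (0.0225) and Taf1d (-0.0389) with the mean of probe sets and for Rplp1 (-0.02) with median centring. With arrays left out, changes ran from -0.18 to 0.01 for Rpl12, -0.045 to 0.065 for Rplp1 and -0.17 to 0.01 for Rpl5. Why these values moved was not tested. Ctcfl itself missed the threshold with ordinary t statistics, either block, all probe sets and any array left out, its log2 change staying between 2.59 and 2.65 there. Distance from background was not measured, which limits Rpl3l and other dim genes.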
